A study of Mus musculus with 6 samples.

Results

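Messenger RNA of 10 genes of the insulin and insulin-like growth factor (IGF) system was followed in mouse glioma cells: the receptors Insr, Igf1r and Igf2r, the ligand Igf1, the adaptors Irs1 and Irs2, and the binding proteins Igfbp2, Igfbp3, Igfbp4 and Igfbp5. The genes were chosen by symbol among the 54446 genes listed in the deposited count tables, and each symbol matched 1 gene. Of the 10, 9 had at least 1 unique molecular identifier (UMI, a tag that marks 1 captured RNA molecule) in a called cell, and 7 passed the filter on low counts. Irs1 and Irs2 fell in the stem cell cultures, Insr and Igf2r rose, and Igf1r, Igf1 and Igfbp4 did not pass the test. Igfbp2, Igfbp3 and Igfbp5 were at or near 0 throughout.

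The libraries were droplet-based 5′ single-cell RNA-seq of 2 groups. GL261, an established mouse glioma line, was represented by 2 libraries of cells labelled glioblastoma cells and kept in a differentiation medium with fetal calf serum (FCS). GL261-GSCs, the cultures derived from that line and labelled glioblastoma stem cells (GSCs), were represented by 4 libraries and kept in a defined GSC medium. Medium and group therefore cannot be told apart. Samples were dissociated with Accutase and treated with a detergent-containing lysis buffer, and the labels name cells and nuclei alike as what was captured. Nothing says that the replicates were separate cultures, so the p-values measure the spread between these libraries, which may be technical.

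Insulin and IGF1 bind the receptor tyrosine kinases encoded by Insr and Igf1r. The activated receptors phosphorylate the insulin receptor substrates IRS1 and IRS2, which recruit phosphoinositide 3-kinase (PI3K), and AKT downstream of it keeps the FOXO transcription factors out of the nucleus. The receptor encoded by Igf2r has no kinase domain and clears IGF2 from the cell surface. The IGF binding proteins hold IGFs in the extracellular space, and proteases such as PAPP-A release them. In glioma this system is known for driving growth and survival, and culture media often supply its ligands.

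Total UMIs per library lay between 80899005 and 121309232, and 4264 to 7275 barcodes per library were called cells, 31731 in all. GL261-GSCs replicate 4 had the lowest median of UMIs per cell, 6670, and GL261 replicate 1 the highest, 15478. Pairs of libraries shared 32 to 59 called barcodes. Across the 18439 genes tested between the groups, 29.9% passed an adjusted p of 0.05, 15.8% with higher and 14.1% with lower values in GL261-GSCs, and 56.7% had libraries that did not overlap between groups (28.7% higher and 28.0% lower in GL261-GSCs). Of the called genes 53.0% were higher there, and 63.2% when libraries were scaled by their size alone, which moves the median over all genes by 0.15 on the log2 scale. The members of the system are read against these shares. Of 31 marker genes of other brain cell types, Cldn5, Tie1, Rbfox3 and Aqp4 were at 0 in every library, while other genes of the same lists differed between the groups. The endothelial list summed to 0.895 to 1.63 CPM (UMIs scaled to the library total) in GL261 against 0.364 to 0.888 CPM in GL261-GSCs, nearly all of it from Pecam1 and Cdh5, and Cdh5 had 49 UMIs in GL261 against 1 in GL261-GSCs. The pericyte and fibroblast list, led by Col1a1, was at 252 and 287 CPM in GL261 against 11.1 to 26.8 CPM in GL261-GSCs, and Pdgfrb had 638 UMIs in GL261 against 30 in GL261-GSCs. The astrocyte list was at 8.50 and 7.85 CPM in GL261, mostly Aldh1l1, and at 61.2 to 85.7 CPM in GL261-GSCs, nearly all Slc1a3, with Gfap at 165 against 3 UMIs. The neuron list was at 85.0 and 92.3 CPM in GL261, nearly all Tubb3, and at 37.2 to 82.6 CPM in GL261-GSCs, where Syt1 was at 1.15, 12.4, 51.6 and 78.2 CPM in replicates 1 to 4 against at most 0.0331 CPM in GL261. Oligodendrocyte precursor markers summed to 505 and 563 CPM in GL261, nearly all Sox10 and Cspg4, against 1291 to 2299.9 CPM in GL261-GSCs, and Olig1 and Olig2 were at most at 1.30 CPM in GL261 against at least 384 CPM in GL261-GSCs. The part of these cell identity genes in the members' values was not tested.

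The stretches upstream of Irs1 and Irs2 are shown because these 2 adaptors moved together, and that of Igf2r because it carries the same motif while its level moved the other way. Each line gives 250 bases before the gene's RefSeq start (build GRCm38.p6), 5′ to 3′ on the gene's strand, with the E-box CACGTG in capitals.
Irs1, chr1:82291440-82291689, minus strand: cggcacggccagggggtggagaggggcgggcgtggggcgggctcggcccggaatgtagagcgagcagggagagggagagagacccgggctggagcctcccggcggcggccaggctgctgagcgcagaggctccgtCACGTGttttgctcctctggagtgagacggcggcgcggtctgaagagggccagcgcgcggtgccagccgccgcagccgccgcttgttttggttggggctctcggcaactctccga
Irs2, chr8:11008930-11009179, minus strand: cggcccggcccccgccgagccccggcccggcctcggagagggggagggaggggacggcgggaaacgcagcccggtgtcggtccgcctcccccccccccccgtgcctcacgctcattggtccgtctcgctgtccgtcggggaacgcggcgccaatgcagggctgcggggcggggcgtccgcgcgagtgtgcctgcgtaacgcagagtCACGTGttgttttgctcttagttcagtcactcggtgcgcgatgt
Igf2r, chr17:12769707-12769956, minus strand: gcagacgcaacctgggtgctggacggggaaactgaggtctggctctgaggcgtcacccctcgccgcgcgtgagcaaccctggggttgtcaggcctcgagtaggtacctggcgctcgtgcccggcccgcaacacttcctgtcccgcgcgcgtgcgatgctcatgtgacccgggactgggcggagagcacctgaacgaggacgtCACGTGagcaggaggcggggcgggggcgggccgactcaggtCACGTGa

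The E-box begins 115 bases before the RefSeq start of Irs1 and 44 bases before that of Irs2. It occurs at 48 and 7 bases before the start of Igf2r and 142 bases before that of Igfbp2, in 1 of its 2 windows. In the GENCODE M21 annotation Irs2 starts further downstream, at 11008458, so its distance to the E-box depends on the annotation. The E-box was present in 7.15% of the 32851 mouse RefSeq promoter windows of 300 bases, which run from 250 bases before to 50 bases after a start. The Irs1 and Irs2 windows also shared 2 runs of 10 letters, GTCACGTGTT, which holds the E-box, and TGTTTTGCTC, each present in 25 windows (0.0761%). The runs overlap in both windows. They were picked because both windows hold them, so this share does not say how often 2 windows have some run in common. Windows existed for 9 of the 10 genes, not for Insr. For FOXO factors only the exact letters GTAAACA were searched, on both strands like the other motifs, and no variant of them. This motif was in none of the members' windows and in 3.65% of all windows. Of the other motifs searched, the SREBP motif TCACNCCAC was likewise in none of them (1.24% of all windows). The AP-1 motif TGANTCA lay in the window of Igf1 and in 1 of 2 windows of Igfbp2 (7.81% of all windows), and the TEAD motif GGAATG in those of Irs1 and Igfbp5 (14.7%). The SP1 motif GGGCGG was in the windows of Irs1, Irs2, Igf1r and Igf2r and in 1 of the Igfbp2 windows (35.7%). A match describes the letters only.

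Irs1 was measured at 71.8 and 74.6 CPM in GL261 replicates 1 and 2. In GL261-GSCs replicates 1 to 4 it was measured at 3.06, 6.36, 3.16 and 4.51 CPM. The groups did not overlap, and both GL261 libraries lay far above all 4 stem cell libraries. Irs1, the first of the insulin receptor substrates, fell 17.1-fold (log2 fold change -4.10, SE 0.30, adjusted p = 0.000268, edgeR quasi-likelihood test with Benjamini-Hochberg adjustment over all genes tested). Levels are CPM over the called cells of a library, with library sizes scaled by TMM, and a positive log2 fold change means a higher level in GL261-GSCs. Leaving out each library in turn, Irs1 gave log2 fold changes between -4.34 and -3.95 and kept its call each time.

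Irs2, the second substrate and a gene known to be repressed by insulin in liver, was measured at 22.9 and 21.8 CPM in GL261. Its levels in GL261-GSCs replicates 1 to 4 were 5.91, 11.1, 5.48 and 8.08 CPM. All 4 stem cell libraries again lay below both GL261 libraries, with the highest of them, replicate 2, also the highest in Irs1. Irs2 fell 2.92-fold (log2 fold change -1.55, SE 0.29, adjusted p = 0.00912). The call was lost without GL261 replicate 1 (-1.52, adjusted p = 0.0717) and without GL261 replicate 2 (-1.59, adjusted p = 0.0679), each of which leaves 1 library in that group, assumed to vary like the others.

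The proportion of the adaptors differed as well. Irs2 made up 24.2% and 22.6% of the summed Irs1 and Irs2 UMIs in GL261. In GL261-GSCs replicates 1 to 4 its share was 65.9%, 63.6%, 63.4% and 64.2%. The group means were 23.4% ± 1.10 (SD, n = 2) and 64.3% ± 1.12 (SD, n = 4), and all 4 stem cell shares lay within the 95% exact binomial interval of replicate 4, 59.6% to 68.6%. The exact 2-sided permutation p was 0.133, the smallest that 15 splits of 6 libraries can give. This share compares libraries and does not say which of the 2 RNAs is the more abundant.

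Fewer cells of the stem cell libraries had an Irs1 UMI. After each cell was thinned to 2000 UMIs, a depth that all called cells reached, 12.1% and 12.6% of GL261 cells had an Irs1 UMI. The shares in GL261-GSCs replicates 1 to 4 were 0.586%, 1.41%, 0.784% and 1.26%. Group means were 12.3% ± 0.347 (SD, n = 2) and 1.01% ± 0.391 (SD, n = 4), with an exact permutation p of 0.133, and 47.7% and 4.66% without thinning. Free RNA, estimated from barcodes of 100 to under 1000 UMIs, would give Irs1 to at most 0.0505% of cells in any GL261-GSCs library. For Irs2 the means were 4.11% ± 0.101 (SD, n = 2) and 1.71% ± 0.631 (SD, n = 4) at 2000 UMIs, and 23.0% and 7.80% without thinning (exact permutation p = 0.133 at 2000 UMIs).

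Irs1 is a gene of 58.3 kb on chromosome 1 (82233101 to 82291416, minus strand, GRCm38), and the protein-coding gene Gm9747 overlaps it on the other strand. The UMIs of Gm9747 numbered 230 and 249 in GL261 against 4 to 23 in GL261-GSCs, and it was called by edgeR (log2 fold change -4.44, SE 0.45, adjusted p = 0.00078). No source used here says whether the counting used the strand, so reads of the pair may not be separable, and Gm9747 had 524 UMIs in all against 9351 and 1080 for Irs1 in the 2 groups.

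**Figure D1:**
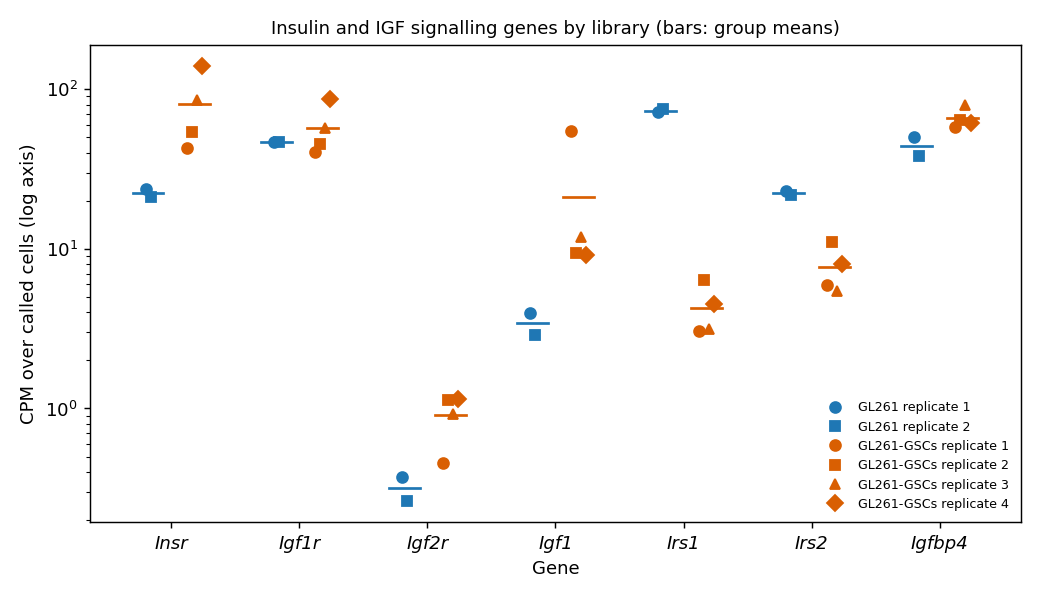
CPM of 7 genes in each library on a log axis, with GL261 in blue and GL261-GSCs in orange, a symbol for each replicate and a bar at each group mean. Irs1 and Irs2 lie lower in all 4 GL261-GSCs libraries, Insr and Igf2r higher, Igf1r overlaps between groups, and Igf1 has 1 library, GL261-GSCs replicate 1, at 54.7 CPM.

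Insr, the insulin receptor, was measured at 23.6 and 21 CPM in GL261. In GL261-GSCs replicates 1 to 4 the values were 43.0, 54.0, 86.1 and 139.0 CPM. The groups did not overlap, and the stem cell libraries themselves spanned a wide range, with replicate 4 the highest. Insr rose 3.61-fold (log2 fold change 1.85, SE 0.49, adjusted p = 0.0301, edgeR). The call was lost without GL261 replicate 1 (adjusted p = 0.153), without GL261 replicate 2 (adjusted p = 0.186) and without GL261-GSCs replicate 3 (1.82, adjusted p = 0.0656).

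Igf1r, the receptor for IGF1 and a close relative of the insulin receptor, had 46.9 and 46.6 CPM in GL261. It had 40.2, 45.5, 56.9 and 86.4 CPM in GL261-GSCs replicates 1 to 4. Replicates 1 and 2 lay below both GL261 libraries and replicates 3 and 4 above them. The log2 fold change was 0.29 (SE 0.31, adjusted p = 0.503, edgeR), so no difference beyond the spread between libraries was detected. For both receptors GL261-GSCs replicate 4 was the highest library and replicate 3 the next.

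Set against each other within a library, Igf1r made up 66.5% and 68.9% of the summed Igf1r and Insr UMIs in GL261. Its share was 48.3%, 45.7%, 39.8% and 38.4% in GL261-GSCs replicates 1 to 4. Every stem cell library had the lower Igf1r share, at 43.0% ± 4.73 (SD, n = 4) against 67.7% ± 1.71 (SD, n = 2), a difference of -24.7 percentage points (exact permutation p = 0.133). Unlike CPM, this share does not depend on how libraries are scaled.

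Cells with an Insr UMI at 2000 UMIs made up 5.41% and 3.50% of GL261. They made up 9.97%, 11%, 17.7% and 29.6% of GL261-GSCs replicates 1 to 4, all above both GL261 libraries. The means were 4.45% ± 1.35 (SD, n = 2) and 17.1% ± 9.02 (SD, n = 4), with an exact permutation p of 0.133, and 23.8% and 50.1% without thinning. Free RNA would account for 2.10% in GL261-GSCs replicate 4, where it is highest, and for at most 0.569% in the other libraries. For Igf1r the shares were 9.46% and 8.62% in GL261 against 8.82%, 10.3%, 12.6% and 18.6% in GL261-GSCs, with overlapping groups (exact permutation p = 0.267). The Igf1r means without thinning were 41.5% and 41.8%. At 1000 UMIs they were 4.43% and 6.75%, and for all barcodes of at least 2000 UMIs 8.63% and 13.8%. In these last settings the groups did not overlap (exact permutation p = 0.133 in each). Across cells at 2000 UMIs, Insr counts had a variance of 0.99 and 1.04 times the mean in GL261. This ratio was 1.09, 1.12, 1.23 and 1.34 in GL261-GSCs replicates 1 to 4. The mean itself was 0.0553 and 0.0364 UMIs per cell in GL261 against 0.109, 0.123, 0.216 and 0.409 in GL261-GSCs. The ratio can rise with the mean alone, so it shows neither an even spread in GL261 nor a more uneven one in GL261-GSCs.

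The level of both receptors depended on the depth of the cell. Among cells with under 5000 UMIs, Insr was at 49.2 and 37.1 CPM in GL261 and at 111, 161, 246 and 316 CPM in GL261-GSCs replicates 1 to 4. Among cells with 10000 to under 20000 UMIs it was at 20.6 and 18.4 CPM in GL261 and at 40.1, 49.9, 66.2 and 89.7 CPM in GL261-GSCs. Shallow cells had the higher value in each of the 6 libraries, and within either depth class all 4 stem cell libraries lay above both GL261 libraries. These values, like those below that split the cells of a library, are not scaled by TMM.

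Igf1r showed the same gradient, from 85.9 and 91.3 CPM in the shallow GL261 cells to 41.4 and 40.5 CPM at 10000 to under 20000 UMIs. In GL261-GSCs it went from 126, 123, 141 and 178 CPM to 37.2, 42.4, 44.6 and 64 CPM in replicates 1 to 4. Malat1, a nuclear non-coding RNA, moved with it, at 10295 to 20086 CPM in the shallow cells of the 6 libraries and 2512 to 4693 CPM at 10000 to under 20000 UMIs. Over all called cells, scaled by TMM, the order of the GL261-GSCs libraries in Malat1 (2855, 3331, 4541 and 7445 CPM) was the order in Insr, as was that in Syt1. GL261-GSCs replicate 4 also had the fewest UMIs per cell. In GL261 Malat1 was at 4665 and 4722 CPM, above GL261-GSCs replicates 1 to 3, whereas Insr was lower in GL261 than in every GL261-GSCs library. Malat1 was not called between the groups (log2 fold change -0.05, SE 0.38, adjusted p = 0.938, edgeR). The part of depth and of nuclear RNA in the receptor values was not tested. With only cells of at least 8000 UMIs summed, an alternative chosen after seeing the data, Insr kept its call at a log2 fold change of 1.62 (adjusted p = 0.0192, edgeR), and Igf1r was at 0.14 (adjusted p = 0.692).

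**Figure D2:**
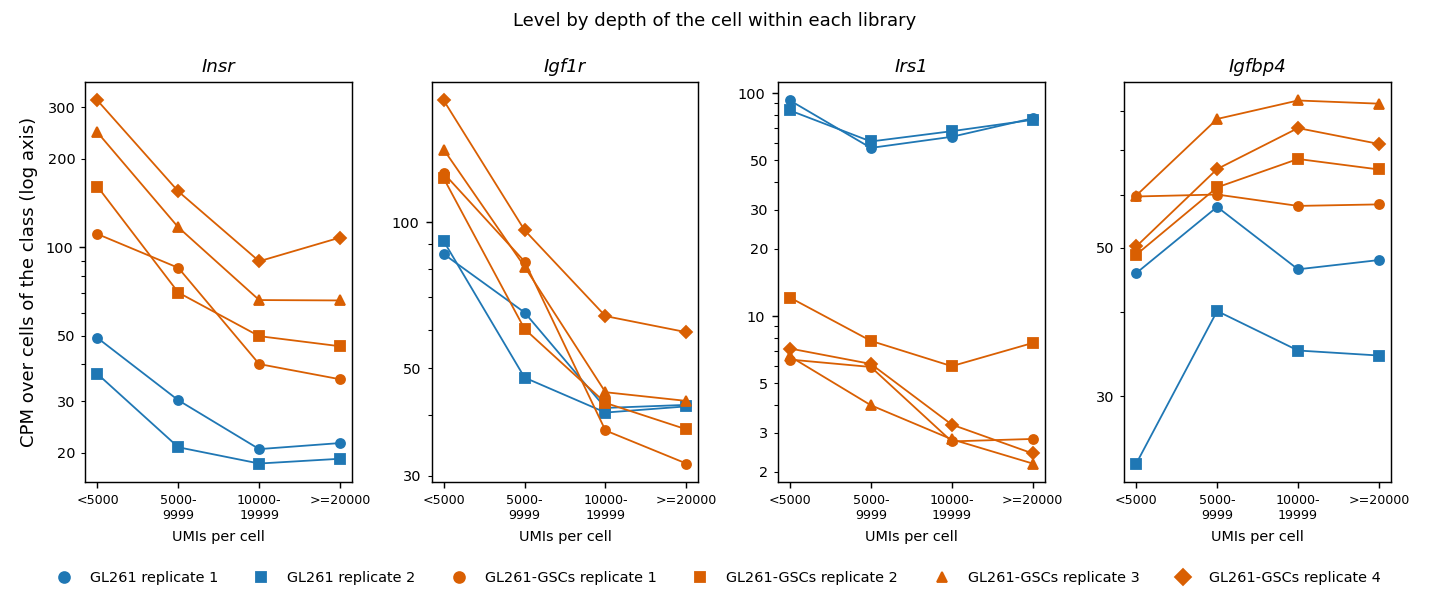
CPM of Insr, Igf1r, Irs1 and Igfbp4 in cells of 4 depth classes (UMIs per cell), 1 line per library, on log axes that differ between panels. Insr and Igf1r are highest in cells under 5000 UMIs in every library, whereas Irs1 separates the groups in every class and Igfbp4 is highest in the shallow class in none of the libraries.

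Both receptors were also found in the same cells more often than their shares alone would give. At 2000 UMIs, Insr and Igf1r were both seen in 45 and 21 GL261 cells, where 24.6 and 15.1 follow from multiplying the shares. The counts were 48, 105, 261 and 335 against 37.5, 66.4, 162 and 249 in GL261-GSCs. The ratio of seen to expected cells was between 1.28 and 1.83 over the 6 libraries. An excess was not particular to the receptors. Pairs of a receptor with an adaptor, and the pair of adaptors, gave 1.15 to 1.75 in the GL261 libraries, and pairs of a receptor with an adaptor gave 0.71 to 2.19 in GL261-GSCs, from 23 joint cells at most. The pair of adaptors was seen in 0, 3, 0 and 0 cells of GL261-GSCs replicates 1 to 4. With Igfbp4 the ratio lay between 0.89 and 1.0 for Insr and between 0.77 and 1.11 for Igf1r. These values describe sparse counts in cells that share a library and the depth gradient above.

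In GL261-GSCs, cells with at least 3 Insr UMIs numbered 209, 290, 706 and 577 in replicates 1 to 4 and held 25.9%, 27.4%, 38.8% and 45.0% of the Insr UMIs. An even spread of Insr over the UMIs of each library would give 164, 224, 647 and 589 such cells with 18.9%, 18.7%, 32.3% and 42.2% of the Insr UMIs. More cells were seen than that in replicates 1 to 3 and fewer in replicate 4, and the share of Insr UMIs was above that of an even spread in all 4. The median depth of the Insr-rich cells was 16757, 13648, 10940.5 and 6493 UMIs, beside 15325, 11826, 10629 and 6695 UMIs in the other cells. With predicted and mitochondrial genes left out, among genes of at least 20 CPM in these cells of each GL261-GSCs library, ranked by the smallest of the 4 library ratios to the rest with 5 CPM added to each level, the leading genes were Thbs2, Kcnq1ot1, Lncpint, Reln, Itga8, Sema3a, Neat1 and Nptx1, a list found after values were seen and given with no test. Kcnq1ot1, Lncpint and Neat1 are non-coding RNAs known to stay largely in the nucleus. Malat1 was at 4775, 5144, 6914 and 10902 CPM in the Insr-rich cells and at 2763, 3343, 4296 and 7701 CPM in the other cells. The proliferation gene Mki67 was at 345, 376, 541 and 415 CPM beside 233, 239, 320.4 and 286 CPM. The part of nuclear RNA and cell division in these differences was not tested. Reln, which encodes the secreted protein reelin, was at 471, 223, 228 and 248 CPM in the Insr-rich cells and at 219, 101, 110.0 and 127 CPM in the other cells of replicates 1 to 4. Cells with at least 3 Insr UMIs numbered 48 and 27 in GL261 and held 9.67% and 6.79% of its Insr UMIs. An even spread would give 32.1 and 15.4 such cells there, with 6.31% and 3.77% of the Insr UMIs.

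Igf2r, which encodes the IGF2 and mannose 6-phosphate receptor, was seen in few cells, with 25 and 16 UMIs in GL261 against 30, 82, 74 and 42 UMIs in GL261-GSCs. These correspond to 0.37 and 0.265 CPM and to 0.455, 1.13, 0.925 and 1.15 CPM. GL261-GSCs replicate 1 was nearest to the GL261 libraries, and the groups did not overlap. Igf2r rose 2.86-fold (log2 fold change 1.51, SE 0.47, adjusted p = 0.0488, edgeR), close to the threshold. At 2000 UMIs the share of cells with an Igf2r UMI was 0.146% and 0.0800% in GL261 against 0.0469%, 0.324%, 0.275% and 0.332% in GL261-GSCs replicates 1 to 4, so by this measure replicate 1 lay below both GL261 libraries (exact permutation p = 0.400). These shares rest on 2 to 20 cells a library, and the means without thinning were 0.400% and 0.992%. The call was lost without any 1 library other than GL261-GSCs replicate 1, at adjusted p-values of 0.0733 to 0.281.

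The antisense gene Airn, a non-coding RNA known for silencing Igf2r on the paternal chromosome, overlaps Igf2r and had 1812 UMIs against 269 for Igf2r. Airn stood at 2.0 and 1.72 CPM in GL261 and at 3.44, 5.66, 7.12 and 10.1 CPM in GL261-GSCs. It rose 3.52-fold (log2 fold change 1.82, SE 0.45, adjusted p = 0.0234, edgeR) and did not overlap between groups. The call was lost without GL261 replicate 1 (0.129), GL261 replicate 2 (0.167) or GL261-GSCs replicate 3 (0.0554, adjusted p-values). Both RNAs of this locus on chromosome 17 (Igf2r at 12682406 to 12769664, GRCm38) were therefore higher in the stem cell libraries, and without stated strand use their reads may not be separable.

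Igf1, the ligand of the IGF1 receptor, was measured at 3.94 and 2.9 CPM in GL261. It was measured at 54.7, 9.36, 11.8 and 9.09 CPM in GL261-GSCs replicates 1 to 4. All 4 stem cell libraries lay above both GL261 libraries, and replicate 1 stood far above the other three. The log2 fold change was 2.63 (SE 0.91, adjusted p = 0.0693, edgeR), which did not pass. Without GL261-GSCs replicate 1 it was smaller and passed, at 1.57 (SE 0.25, adjusted p = 0.00548).

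GL261-GSCs replicate 1 also had the largest share of cells with an Igf1 UMI, which a higher level in each cell would give as well. At 2000 UMIs the share with an Igf1 UMI was 0.728% and 0.580% in GL261, against 8.75%, 1.67%, 2.14% and 1.84% in GL261-GSCs replicates 1 to 4. Means were 0.654% ± 0.105 (SD, n = 2) and 3.60% ± 3.44 (SD, n = 4), and 3.97% and 13.0% without thinning (exact permutation p = 0.133 at 2000 UMIs). Free RNA would give at most 0.596%, in replicate 1. Igf1 had no depth gradient there, with 57.4 CPM in cells under 5000 UMIs and 53.8 CPM at 10000 to under 20000 UMIs.

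Cells with at least 2 Igf1 UMIs, a bound set after seeing the data, numbered 703 in GL261-GSCs replicate 1 (16.5% of its cells) and held 79.1% of its Igf1 UMIs. In replicates 2 to 4 there were 109, 182 and 55 such cells (1.86%, 2.5% and 1.22%), which held 56.3%, 68.6% and 58.0% of the Igf1 UMIs. An even spread of Igf1 over the UMIs of a library would give 907 such cells with 60.9% of the Igf1 UMIs in replicate 1, and 41.3, 66.9 and 15.1 such cells with 12.5%, 14.6% and 9.31% in replicates 2 to 4. In replicates 2 to 4 there were thus more such cells than an even spread gives, with a larger share of the Igf1 UMIs. In replicate 1 there were fewer than an even spread gives, also with a larger share. GL261 replicates 1 and 2 held 23 and 9 such cells, with 24.8% and 10.9% of the Igf1 UMIs. An even spread would give 8.32 and 3.44 such cells there, with 6.33% and 3.96%, so GL261 also had more than that.

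These cells carried Olig2, a transcription factor of the oligodendrocyte lineage, at 410.2, 322, 708 and 508 CPM, beside 403, 429, 795 and 689.5 CPM in the other cells of replicates 1 to 4. Microglia and macrophages are a known source of Igf1 in brain, and their markers Ptprc, Aif1, P2ry12 and Tyrobp had 0 UMIs in the Igf1-rich cells of all libraries. Each of these genes had at most 3 UMIs over all called cells of any library, so 0 in a part of those cells adds little. Csf1r, Cx3cr1 and Itgam were not examined in the Igf1-rich cells. The lysosomal gene Cd68 of the same list was at 18.5, 46.4, 69.2 and 83.3 CPM in the Igf1-rich cells and at 12.8, 8.37, 17.3 and 24.0 CPM in the others. Over all called cells 2 to 7 of the 8 genes of this list had a UMI, and their sum was 21 and 19.9 CPM in GL261 against 9.22 to 23.2 CPM in GL261-GSCs. Ptprc had at most 2 UMIs in any library and Tyrobp at most 1, while Csf1r was at 12.9 and 12.6 CPM in GL261 against 0.192 to 0.243 CPM in GL261-GSCs.

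By the same ranking and limits, the leading genes of the Igf1-rich cells were Opalin, Plpp3, Thbs2, Il33, Eps8, Ripk2, Plpp1 and Wfdc13. They too were found after values were seen and have no test. Opalin, known as a membrane protein of oligodendrocytes, was at 65.5, 193, 103 and 96.9 CPM in the Igf1-rich cells and at 27.1, 60.6, 19.3 and 18.3 CPM in the other cells. The cytokine gene Il33 was at 52.0, 98.0, 60.8 and 45.9 CPM beside 27.1, 21.1, 11.3 and 8.71 CPM. The proliferation gene Mki67 was at 224, 147, 157 and 95.2 CPM in the Igf1-rich cells and at 243, 249, 349.7 and 307 CPM in the others, lower in all 4 libraries and least so in replicate 1. In the 23 and 9 Igf1-rich cells of GL261 Mki67 was higher, at 387 and 743 CPM beside 296 and 341 CPM in the others. The Igf1-rich cells were deeper, with median UMIs of 17901, 13706, 13878 and 10894 beside 14812, 11856, 10522 and 6626 in the other cells, and doublets were not removed. The part of depth and doublets in these differences was not tested.

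Igfbp4, a secreted binding protein that holds IGFs until it is cleaved by PAPP-A, was measured at 50.3 and 38.4 CPM in GL261. It was at 57.6, 63.8, 80.0 and 61.8 CPM in GL261-GSCs replicates 1 to 4. No stem cell library overlapped with GL261, but the gap between the groups was smaller than the difference between the 2 GL261 libraries. The log2 fold change was 0.57 (SE 0.19, adjusted p = 0.0587, edgeR) and did not pass. It passed without GL261-GSCs replicate 1 (0.65, adjusted p = 0.0426) and in cells of at least 8000 UMIs (0.70, adjusted p = 0.0357). At 2000 UMIs 7.33% ± 1.78 (SD, n = 2) of GL261 and 11.8% ± 1.57 (SD, n = 4) of GL261-GSCs cells had a UMI (exact permutation p = 0.133), with 35.7% and 45.3% unthinned.

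Igfbp4 accounted for nearly all UMIs of the 4 binding protein genes chosen, 99.8% or more in each library. Igfbp2, known as a marker of malignant human glioma, had 6 and 0 UMIs in GL261 against 1, 0, 1 and 0 in GL261-GSCs. That is 5.98 times more per UMI in GL261, with a 95% counting interval of 1.07 to 60.6, and it rests on GL261 replicate 1 alone. Igfbp5 had 1 UMI, in GL261-GSCs replicate 1, and Igfbp3 had none. A count of 0 allows Igfbp3 up to 0.00784 CPM over all libraries, taking 3 UMIs as the limit. Igfbp2 and Igfbp5 are neighbours on chromosome 1, 5.46 kb apart. Intervals and limits cover counting error only.

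In all, 4 of the 7 members tested were called, 2 higher and 2 lower (57.1%, beside 29.9% of all genes tested). In 6 of the 7 the groups held no overlapping libraries (85.7%, beside 56.7%). The median log2 fold change of the 7 was 0.57, and that of all genes was 0.04. Igf1r was the member whose groups overlapped. The count of called members fell to 1 without either GL261 library and to 2 without GL261-GSCs replicate 3, where all genes called numbered 1972 without GL261 replicate 1 and 1817 without GL261 replicate 2, down from 5514.

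Cell division was examined within each library, so that each library was its own control. Cells were ranked by the share of their UMIs in 43 genes of the G2 and M phases, and the upper 25% were compared with the other cells. Mki67 was at 481 to 795 CPM in the upper class and at 106 to 223 CPM in the other cells, and 234 to 684 cells per library lay within 10% of the bound, so the class is a range of a score. The 6 members with at least 20 UMIs in each library entered the test.

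Igfbp4 was lower in the G2/M-high cells of all 6 libraries, at log2 ratios of -0.14 and -0.40 in GL261 against -0.15, -0.30, -0.28 and -0.19 in GL261-GSCs. The mean was -0.24 ± 0.10 (SD, n = 6), with an exact sign-flip permutation p of 0.0312, the smallest that 6 libraries can give, and 0.188 after Benjamini-Hochberg adjustment over the 6 members. The difference therefore did not pass, and with 6 libraries and 6 members a single gene at the smallest p could not have passed. The other members moved in both directions across libraries, with adjusted exact permutation p-values of 0.281 to 0.469.

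Igf1 and Irs2 took opposite signs in the groups. For Igf1 the log2 ratios were 0.38 and 0.09 in GL261 against -0.22, -1.36, -1.36 and -0.84 in GL261-GSCs. For Irs2 they were 0.15 and 0.36 in GL261 against -0.41, -0.29, -0.40 and -0.91 in GL261-GSCs. In the stem cell libraries both RNAs were thus lower in the G2/M-high cells, and in GL261 higher. In GL261-GSCs replicate 4 the Irs2 level was 5.23 CPM in G2/M-high and 10.3 CPM in the other cells, from 50 UMIs in the former. The G2/M-high cells were also deeper, with medians of 7622 to 17202 UMIs in the 6 libraries beside 6424 to 15199 in the other cells.

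**Figure D3:**
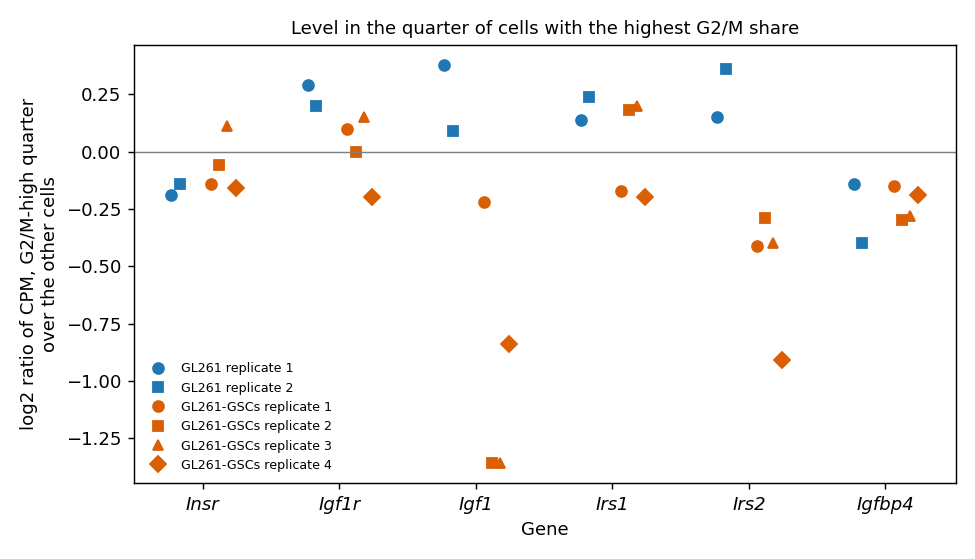
Log2 ratio of CPM between the 25% of cells with the highest G2/M share and the other cells of the same library, for 6 genes, 1 symbol per library (GL261 blue, GL261-GSCs orange). Igfbp4 lies below 0 in all 6 libraries, and Igf1 and Irs2 lie above 0 in both GL261 libraries and below 0 in the 4 GL261-GSCs libraries.

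Beyond the 10 members, 109 other genes of the system were grouped into 7 lists by role, of which 94 were tested and 43 called, 26 higher and 17 lower in GL261-GSCs (45.7%, beside 29.9% of all genes tested). Their median log2 fold change was 0.09, beside 0.04 for all genes. The count fell to 14 without GL261 replicate 1 and to 11 without GL261 replicate 2. In that order it fell from 14 to 3 and 3 for adaptors and negative regulators, from 11 to 3 and 2 for PI3K, AKT and TOR genes, from 13 to 7 and 5 for the FOXO list, from 2 to 0 and 0 for proteases and inhibitors, from 2 to 1 and 1 for IGF2 mRNA-binding proteins, and from 1 to 0 and 0 for ligands. Without GL261-GSCs replicate 3, 6 PI3K, AKT and TOR genes were called.

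The ligand list had 2 of 5 genes tested and 1 called (50%, beside 29.9% of all genes tested). Insl6, an insulin-like peptide of the relaxin family, was at 11.2 and 9.09 CPM in GL261 and at 16.5, 26.6, 21 and 22.6 CPM in GL261-GSCs, and rose 2.13-fold (log2 fold change 1.09, SE 0.23, adjusted p = 0.0126). Igf2, the fetal growth factor, was rare, with 27 and 13 UMIs in GL261 against 0 to 10 in GL261-GSCs, at a log2 fold change of -2.04 that did not pass (SE 0.73, adjusted p = 0.0764). The insulin genes Ins1 and Ins2 had 1 UMI each, both in GL261-GSCs libraries. Of the other binding proteins, 2 of 5 were tested and 0 called by edgeR (1 at an unadjusted p under 0.05), while DESeq2 and limma-voom each called 1, Igfbp6. Igfbp6 was at 20.5 and 31.7 CPM in GL261 and at 19.4, 9.9, 6.98 and 10.7 CPM in GL261-GSCs (log2 fold change -1.15, adjusted p = 0.067), and it passed without GL261-GSCs replicate 1 (-1.49, adjusted p = 0.00819). Igfbp7 was at 0.267 and 0.381 CPM and at 0.0455 to 0.714 CPM (-0.15, adjusted p = 0.926).

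Among proteases that cleave binding proteins and their inhibitors, 6 of 10 were tested, 1 was called higher and 1 lower (33.3%, near the 29.9% of all genes tested). Pappa, the protease of Igfbp4, had 19 and 17 UMIs in GL261 against 0 in each GL261-GSCs library. It was at least 23.9-fold lower there, taking 3 UMIs over the group as the limit (adjusted p = 0.00826, edgeR). Adam12, a metalloprotease reported to cleave other binding proteins, was at 14.0 and 11.4 CPM in GL261 and at 24.7, 53.8, 23.3 and 28.5 CPM in GL261-GSCs, and rose 2.56-fold (adjusted p = 0.0372). Its call was lost in cells of at least 8000 UMIs (1.24, adjusted p = 0.0548). Stc2, an inhibitor of PAPP-A, was at 0 in all 6 libraries.

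Adaptors and negative regulators had 27 of 29 genes tested, 5 called higher and 9 lower (51.9%, beside 29.9% of all genes tested), with a median log2 fold change of -0.23. Socs3, which blocks receptor signalling to the IRS proteins, fell 6.12-fold, from 23.2 and 22.0 CPM in GL261 to 3.14, 4.09, 3.11 and 4.45 CPM in GL261-GSCs (log2 fold change -2.61, SE 0.20, adjusted p = 0.000313). Dok1, a docking protein, fell 4.09-fold, from 52.8 and 62.6 CPM to 18.5, 16.0, 12.3 and 9.59 CPM (adjusted p = 0.00189), and its relative Dok4 fell 2.68-fold (adjusted p = 0.0104). Gab1, an adaptor that also recruits PI3K, rose 4.23-fold, from 13.7 and 13.0 CPM to 47.5, 64.1, 51.0 and 63.0 CPM (log2 fold change 2.08, SE 0.18, adjusted p = 0.000478). The remaining receptor substrates were named after their values were seen. Irs4 had 4 and 3 UMIs in GL261 against 74, 51, 207 and 180 UMIs in GL261-GSCs replicates 1 to 4, or 1.12, 0.704, 2.59 and 4.94 CPM (log2 fold change 5.36, adjusted p = 0.0111). Its log2 fold change was 4.73 without GL261-GSCs replicate 4. Irs3 had 38 against 33 UMIs, or 0.311 and 0.282 CPM in GL261 against 0.1 to 0.165 CPM in GL261-GSCs without overlap, and did not pass (-1.15, adjusted p = 0.0518). Grb10 had 2 UMIs in all and was not tested.

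The list of PI3K, AKT and TOR genes had 34 of 35 tested, 8 called higher and 3 lower (32.4%, near the 29.9% of all genes), with a median of 0.18. Its regulatory subunits Pik3r3 and Pik3r2 rose 3.47-fold and 1.78-fold, from 3.64 and 2.67 CPM to 8.35 to 14.0 CPM (adjusted p = 0.0049) and from 46.7 and 48.4 CPM to 76.1 to 97.4 CPM (adjusted p = 0.00634). Pik3r1, another regulatory subunit and named after its values were seen, was also called, 2.78-fold higher (adjusted p = 0.0305, edgeR). Left-out fits are not given for Pik3r1. Phlpp1, a phosphatase of AKT, rose 4.25-fold, from 17.0 and 15.8 CPM to 46.7, 61.7, 70.4 and 99.3 CPM (adjusted p = 0.00368). Deptor, an inhibitor of the TOR kinase, fell 14.8-fold, from 12.6 and 10.6 CPM to 0.743, 1.24, 0.513 and 0.632 CPM (log2 fold change -3.88, SE 0.36, adjusted p = 0.000565).

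FOXO factors and genes listed as their targets had 20 of 22 tested, 10 called higher and 3 lower (65.0%, beside 29.9% of all genes tested), with a median log2 fold change of 0.80. The factors were named after their values were seen. Foxo4 fell 1.46-fold, from 50.5 and 56.4 CPM to 33.9 to 40.5 CPM (log2 fold change -0.54, adjusted p = 0.0189). Foxo3 rose by 1.0 on the log2 scale (adjusted p = 0.0141), Foxo1 was at 0.08 (adjusted p = 0.874), and Foxo6 was at 0 in every library. Trib2, a pseudokinase, rose from 0.178 and 0.0497 CPM in GL261 to 9.72, 16.5, 11.7 and 10.2 CPM in GL261-GSCs (log2 fold change 6.68, SE 0.57, adjusted p = 0.000417). The GL261 level of Trib2 rests on 12 and 3 UMIs, and its log2 fold change was 7.85 without GL261 replicate 1 and 6.06 without GL261 replicate 2. Fbxo32, the ubiquitin ligase atrogin-1, rose 8.07-fold, from 3.13 and 2.09 CPM to 22.5, 16.0, 21.1 and 24.7 CPM (adjusted p = 0.000594). Cited2, a transcriptional co-regulator, fell 5.51-fold, from 539.5 and 505.0 CPM to 85.2, 99.1, 105.0 and 89.7 CPM (log2 fold change -2.46, SE 0.13, adjusted p = 9.39e-05). Klf15, a transcription factor, had 347 and 338 UMIs in GL261 against 0 in the 4 GL261-GSCs libraries, at least 455-fold lower (adjusted p = 0.000766). The listed targets thus moved in both directions, and many respond to other signals as well.

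The proteins that bind IGF2 messenger RNA also split. Igf2bp1 had 273 and 400 UMIs in GL261 against 1, 0, 1 and 0 in GL261-GSCs, a ratio of 670.4 with a counting interval of 185 to 5547 (adjusted p = 0.00015). Igf2bp3 rose 1.68-fold, from 45.6 and 46.0 CPM to 63.0, 90.9, 78.0 and 75.2 CPM (adjusted p = 0.0163). Igf2bp2 was at 85.2 and 91.7 CPM in GL261 and at 55.5, 62.1, 27.6 and 28.9 CPM in GL261-GSCs, without overlap, and did not pass (log2 fold change -1.02, SE 0.35, adjusted p = 0.0687). Adjusted p-values of all these genes come from the edgeR test over all genes. Without GL261 replicate 1, and likewise without GL261 replicate 2, the calls of Insl6, Pappa, Adam12, Dok4, Irs4, Pik3r2, Foxo3, Foxo4 and Igf2bp3 were lost (adjusted p 0.0704 to 0.232), and that of Pik3r3 was lost without GL261 replicate 2 (0.0663).

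**Figure D4:**
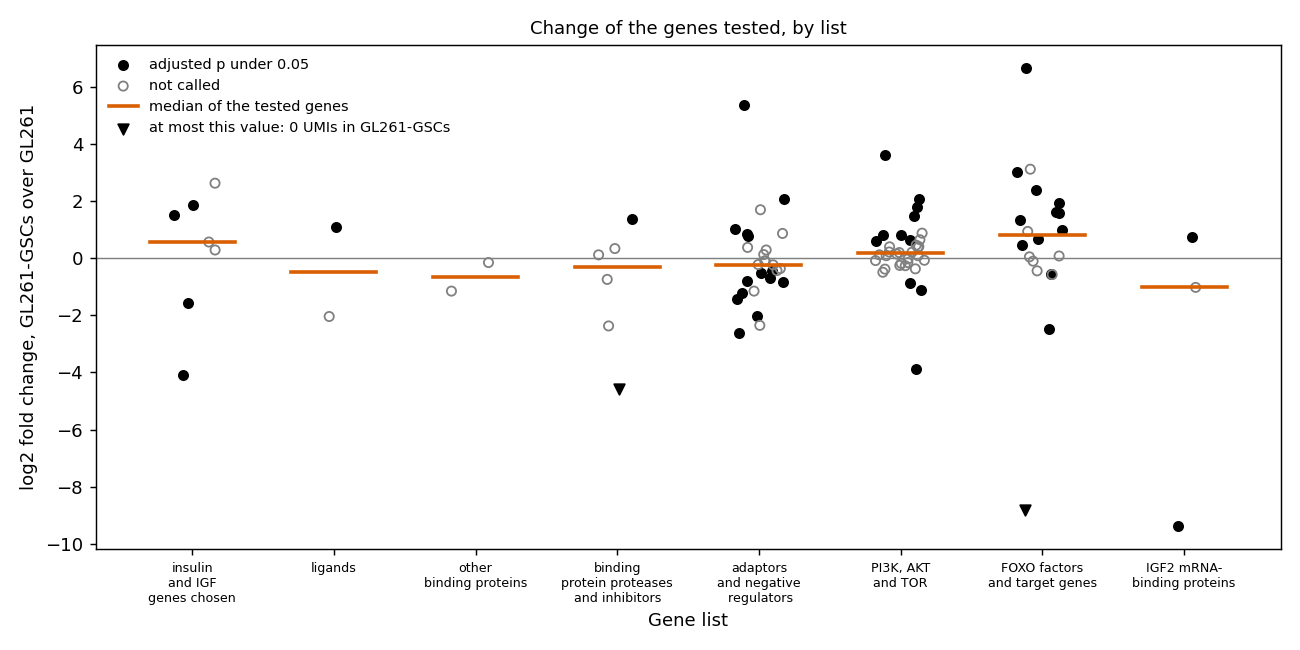
Log2 fold change, GL261-GSCs over GL261, of the tested genes of the 10 members and of 7 lists, filled where the adjusted p was under 0.05, with the median of each list as a bar. Triangles are upper bounds for Pappa and Klf15, which had 0 UMIs in GL261-GSCs, and Igf2bp1 is at its ratio of UMIs. The FOXO list has the highest median, 0.80, and every list with 6 or more tested genes holds called genes in both directions.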

How the data were processed

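The authors deposited raw, unfiltered UMI counts for each gene and barcode, made with Cell Ranger 4 (per the file headers) on build mm10 (per the submitters' processing notes). Aligner settings and annotation release: not given in the sources used here. Called cells had at least 500 genes, under 10% mitochondrial UMIs and a UMI count of at least 10% of the 99th percentile among the 3000 largest barcodes. Doublets were not removed, and no caller was run. Sums over the called cells of a library were tested with edgeR 4.0.16 (glmQLFTest, TMM, filterByExpr, no block, Benjamini-Hochberg over 18439 genes, R 4.3.3), 2-sided. The SE is the log2 fold change over the square root of F. DESeq2 1.42.0 and limma 3.58.1 (voom) were alternatives. For G2/M ratios 0.5 CPM was added. The scripts were tested on simulated data. Shares have exact (Clopper-Pearson) intervals at 95%. Coordinates are from GENCODE M21 by identifier (54409 of 54446 matched without version), promoters from RefSeq.

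The members and the gene lists were chosen with earlier results of these data known, and so were the tests. Named were all 10 members, of the other lists Igf2, Igfbp6, Igfbp7, Pappa, Stc2, Grb10, Igf2bp2 and Igf2bp3 whatever their values, up to 4 genes per list with the smallest p among those called, and the defining markers. The 7 lists hold ligands, other binding proteins, proteases and inhibitors, adaptors and negative regulators, PI3K, AKT and TOR genes, FOXO factors and targets, and IGF2 mRNA-binding proteins.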

Additional observations from a re-analysis of the deposited data

Results flagged for a closer look

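In 4 of 46 groups of 4 values checked, a single GL261-GSCs library stood apart from the other three by more than Dixon's 95% critical value, which chance exceeds in about 1 in 20 groups. Igf1 in GL261-GSCs replicate 1 was at 54.7 CPM, with the others at 9.09 to 11.8 CPM. The share of cells with an Igf1 UMI at 2000 UMIs was 8.75% in the same library, with the others at 1.67% to 2.14%. Adam12 in GL261-GSCs replicate 2 was at 53.8 CPM, with the others at 23.3 to 28.5 CPM. Gm9747, which overlaps Irs1, was at 0.317 CPM in GL261-GSCs replicate 2, with the others at 0.110 to 0.125 CPM.

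In G2/M-high cells, Igf1 and Irs2 had log2 ratios above 0 in both GL261 libraries and below 0 in all 4 GL261-GSCs libraries. The GL261-GSCs mean was -0.95 for Igf1, with 0.24 in GL261, and -0.50 for Irs2, with 0.25 in GL261. The difference between the groups was not tested.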

How the results depend on the processing

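For fitted changes, 10 alternatives and 6 left-out libraries were run, 1 of the alternatives (cells of at least 8000 UMIs) chosen after seeing the data. Irs1 kept its direction and its call in all 16, between -4.34 and -3.94. Leaving out 1 library gave 1.48 to 2.08 for Insr (adjusted p 0.0109 to 0.186), 1.29 to 1.77 for Igf2r (0.00986 to 0.281), 1.57 to 2.91 for Igf1 (0.00548 to 0.309), -1.76 to -1.41 for Irs2 (0.00424 to 0.0717) and 0.38 to 0.77 for Igfbp4 (0.0426 to 0.384). Without the lone second library of GL261 fewer samples estimate the spread. The count of all genes called was 1817 to 6193, that of list genes 11 to 52 and that of members 1 to 6. Igf2r was not called with limma-voom (1.41, adjusted p = 0.0786). On simulated data with 200 of 17939 genes changed, DESeq2 made 77 false calls and edgeR 6. DESeq2 also recovered more of the changed genes, 158 against 114 with edgeR. The simulation cannot decide between the methods here, because a far larger share of genes, 29.9%, was called in the data. Igf1 was called with DESeq2 (2.63, 0.00142), with no filter on low counts (2.64, 0.0221) and with GL261-GSCs libraries summed in pairs (2.63, 0.0271). The pairs were replicates 1 with 2 and 3 with 4, and no label says how these libraries are related. Igfbp4 was called with DESeq2 (0.57, 0.0273), with library size scaling (0.71, 0.0293), which shifts the median of all genes by 0.15, and in deep cells (0.70, 0.0357). Igfbp6 was called with DESeq2 (-1.16, 0.0209), limma-voom (-1.23, 0.0491) and no filter (-1.16, 0.0327). Igf2 was called with all barcodes (-1.75, 0.0230), barcodes of at least 1000 UMIs (-2.07, 0.0306) and summed pairs (-1.93, 0.0476), and Igf2bp2 with DESeq2 (-1.03, 0.0232), with no filter (-1.02, 0.0338) and without GL261-GSCs replicate 2 (-1.22, 0.0418). With DESeq2, and with the block, 4 proteases and inhibitors were called in place of 2. The cause of these changes was not tested.

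The replicate numbers were not taken as pairs because the labels do not say that they pair the groups. Same-numbered libraries of the groups had deviations from their group means that correlated at -0.03 and 0.10 over 9494 genes. These values cannot decide pairing, because the deviations of the 2 GL261 libraries mirror each other. In a fit with the replicate number as a block, GL261-GSCs replicates 3 and 4 have no GL261 library of the same number. The group difference in that fit rests on replicates 1 and 2 of each group alone. With this block Igf1r reversed to -0.13 (adjusted p = 0.454, edgeR), Igf2r was not called (1.20, 0.135), Igf1 was called (2.78, 0.0140) and Insr was at 1.12 (0.00609). Igfbp7 (-2.46, 0.0172) and Igf2bp2 (-0.59, 0.0149) were called, Foxo1 was at -0.28 (0.490), Irs4 was at 4.01 (0.00226), and 6512 genes were called in all.

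Igfbp7, called under no other alternative than the block, changed sign with library size scaling (0.02), all barcodes (0.09), barcodes of at least 1000 UMIs (0.11) and left-out libraries (-0.85 to 0.23). Foxo1, never called, changed sign with limma-voom (-0.01), and left-out libraries gave -0.02 to 0.30. Among G2/M ratios, Insr changed sign in the upper 10% of cells (0.05), with Mki67 and Top2a only (0.31) and with thinned cells (0.03), and Irs2 with Mki67 and Top2a only (0.05). Left-out libraries moved the difference of the Igfbp2 share of cells between -0.0416 and 0 percentage points. The share of the binding protein UMIs moved between -0.166 and 0.0105 for Igfbp2, -0.0171 and 0.159 for Igfbp4, and 0 and 0.00877 for Igfbp5, from at most 8 UMIs of Igfbp2 and 1 of Igfbp5. Differences of shares of cells with a UMI for the other members kept their direction at 1000 UMIs and unthinned. Igf2r, Igfbp2, Igfbp3 and Igfbp5 had the fewest UMIs of the members.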
